A study of Mus musculus with 6 samples.

Results

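A group of 10 mature miRNAs from imprinted loci of the mouse other than Dlk1-Dio3 was followed through 6 small RNA-seq libraries of the embryonic brain. They are both arms of miR-335 (in Mest), miR-483 (in Igf2), miR-675 (in H19), and miR-296 and miR-298 (at the Gnas locus). They were chosen by name and host locus, not by level, and all 10 were found among the 1915 mature miRNAs listed in each library. All 10 passed the filter of at least 10 reads summed over the libraries, which kept 1120 miRNAs for testing. The libraries, 3 from females and 3 from males, were made from the whole brain of wild-type C57BL/6 embryos at E15.5. The comparison asked how miRNA levels differ between the sexes at this stage. Sex had been read from the gonads, by the presence or absence of testicular cords, and each replicate pooled the RNA of several embryos of that sex. A library therefore averages its embryos, and errors are between pools. Since both sexes are wild type and neither allele was marked, the reads do not tell the maternal copy from the paternal one.

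At an imprinted locus, a gene is read mainly from the copy inherited from 1 parent, and miRNAs within the same transcription unit often share that bias. Mest and Igf2 are read mainly from the paternal copy in most embryonic tissues, though not in every tissue. Which copy was read in these brain libraries was not measured. Mest codes for a protein of the hydrolase fold family found widely in embryonic mesoderm, and Igf2 codes for a fetal growth factor that is strongly expressed in mesenchyme, meninges and choroid plexus. H19, the neighbour of Igf2, is a maternally expressed long non-coding RNA and the precursor of miR-675. The Gnas locus codes for the alpha subunit of the stimulatory G protein and holds several imprinted transcripts of either parental origin, among them the antisense RNA Nespas. A miRNA precursor yields a 5p and a 3p strand, of which the one loaded into an Argonaute protein is kept, so the arms of 1 hairpin can be present at very different levels. Targets are recognised mainly through the seed, bases 2 to 8 of the mature strand.

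The mature sequences are shown because they set which targets each arm can pair with, and because their base composition enters the comparison of the sexes. They are written 5′ to 3′ from RefSeq, and the capitals mark the seed.
mmu-miR-335-5p: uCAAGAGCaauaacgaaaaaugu
mmu-miR-335-3p: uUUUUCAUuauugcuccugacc
mmu-miR-483-5p: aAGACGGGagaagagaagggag
mmu-miR-483-3p: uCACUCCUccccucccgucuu
mmu-miR-675-5p: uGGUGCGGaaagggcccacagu
mmu-miR-675-3p: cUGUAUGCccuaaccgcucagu
mmu-miR-296-5p: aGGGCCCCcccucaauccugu
mmu-miR-296-3p: gAGGGUUGgguggaggcucucc
mmu-miR-298-5p: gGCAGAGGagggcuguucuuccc
mmu-miR-298-3p: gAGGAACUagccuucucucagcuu

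No seed of these 10 was shared with another of them or with any other mature mouse miRNA in the RefSeq table, so none of them belongs to a larger seed family there. The strands are 21 to 24 bases long. The arms of miR-335 are poor in G and C, with a GC content of 30.4% for the 5p and 36.4% for the 3p strand. The other 8 lie between 50% for miR-298-3p and 68.2% for miR-296-3p.

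In the mm9 genome build (NCBIM37), the precursor of miR-335 lies on the plus strand at chr6:30691299-30691396, in an intron of Mest. The precursor of miR-483 lies on the minus strand at chr7:149840829-149840901, in an intron of Igf2, and that of miR-675 at chr7:149762969-149763052 on the same strand, in an exon of H19. These hairpins are separated by 77776 bases. The precursors of miR-296 and miR-298, at chr2:174092548-174092626 and chr2:174093005-174093086, lie 378 bases apart on the minus strand. Neither overlaps another gene in the annotation (GENCODE vM1). The nearest gene on their strand is Nespas, whose annotated 3′ end is 14112 and 13652 bases away, and the nearest gene on the other strand is Gnas. For each of the 5 precursors, the RefSeq hairpin was identical to the mm9 sequence at these positions.

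Total counts ran from 14802675 to 59362011 reads on miRNAs per library, and 660 to 915 miRNAs had at least 1 read. Female library 2 stood apart. It had the highest total and the fewest miRNAs detected, and its median count over detected miRNAs was 1846.5 reads, against 218 to 352 in the other 5 libraries. The fold changes and called counts it enters are given with and without it. Reads carried no molecular identifier that the protocol names and are not independent molecules, and counting intervals and limits cover counting error only. Levels are CPM, the counts scaled to the same library total of 1000000 reads, with no division by length, and a limit of 3 reads corresponds to 0.0505 to 0.203 CPM. The neuronal miRNA mmu-miR-9-5p, which defines brain tissue, was at 129827 to 198644 TMM-scaled CPM in the 6 libraries.

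The 10 miRNAs together took 0.575% to 1.28% of the reads of a library, and their levels spanned over 3 orders of magnitude. By mean CPM over the 6 libraries, the order was miR-335-5p, miR-298-5p, miR-335-3p, miR-296-5p, miR-483-3p, miR-296-3p, miR-483-5p, miR-675-3p, miR-298-3p and miR-675-5p. miR-335-5p ranked 45 and miR-298-5p ranked 79 among all listed miRNAs, while miR-675-5p ranked 658. The first 4 steps in this order, from miR-335-5p down to miR-483-3p, and the step from miR-296-3p to miR-483-5p held in 6 of 6 libraries. Each of these 5 steps had p = 0.03125 in the two-sided exact sign-flip permutation test within libraries, the smallest that 6 libraries can give. miR-483-3p and miR-296-3p did not differ beyond their spread (above in 3 of 6 libraries, exact p = 0.625), and their order was not the same in the sexes, since miR-483-3p was below miR-296-3p in every female library and above it in every male library. Among the 4 rarest arms, neighbours were in the given order in 5, 2 and 4 of 6 libraries, with exact p = 0.3125, 0.8125 and 0.78125.

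**Figure D1:**
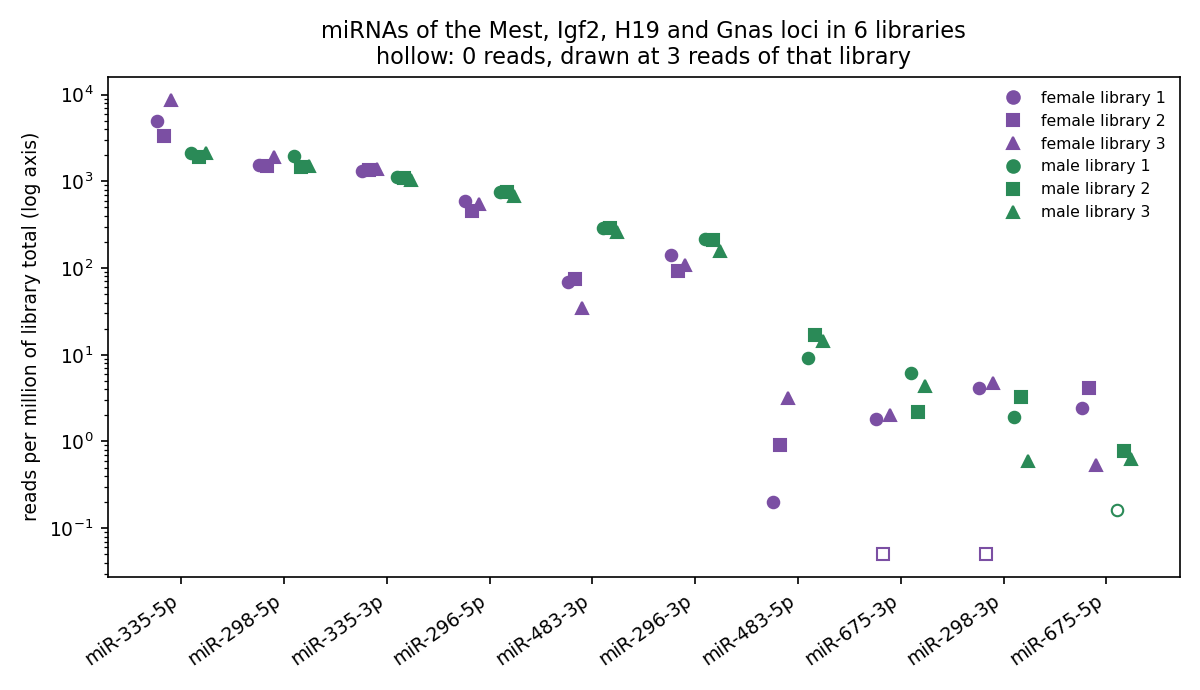
Level of each miRNA in each library, as CPM on a log axis, in the order of the mean level. Violet symbols are the 3 female and green symbols the 3 male libraries, and a hollow symbol is a library with 0 reads, drawn at the level of 3 reads. The female libraries lie above the male ones for miR-335-5p, from 3309.3 to 8773.9 CPM against 1891.5 to 2132.9 CPM, and below them for miR-483-3p, from 34.9 to 74.7 CPM against 263 to 292 CPM.

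Between the sexes, miR-483-3p, miR-483-5p and miR-335-5p differed past the threshold of 0.05 for the adjusted p-value, with edgeR (quasi-likelihood test, adjusted by Benjamini-Hochberg over all 1120 miRNAs). Both arms of miR-483 were male-biased and miR-335-5p was female-biased. These 3 of 10 stand beside a background of 8.48% of all tested miRNAs called in either direction, with 3.21% male-biased and 5.27% female-biased. Without female library 2, 4 of 10 were called, the added one being the male-biased miR-296-3p, against a background of 18.3%. Without male library 1, miR-483-3p alone was called, when 30 of 1097 miRNAs passed. With 1 factor from RUVr, the adjustment for unwanted variation that the study's methods name, 6 of 10 were called in edgeR and 7 of 10 in DESeq2, against backgrounds of 20.3% and 23.2%. That factor mainly set female library 2 apart, at 0.903 there and -0.343 to 0.0778 in the other libraries. The log2 fold changes (male over female) of the 10 had a median of 0.10, with 5 above and 5 below 0, and those of all tested miRNAs had a median of -0.02, with 550 above and 570 below 0. Scaling by library total in place of edgeR's TMM moved the median of all tested miRNAs by 0.11, and the GC offset moved it by -0.13. The arms of a hairpin share a transcript, so the 10 values are not 10 independent readings of the loci.

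On the CPM scale, the sexes did not overlap for 7 of the 10 miRNAs, namely both arms of miR-335, both arms of miR-483, both arms of miR-296, and miR-675-3p. Of these, miR-335-5p and miR-335-3p were higher in females and the other 5 in males. Over all tested miRNAs, 23.9% did not overlap, with 15.4% higher in males and 8.57% higher in females. Each of the 7 had p = 0.1 in a two-sided exact permutation test, which 3 libraries against 3 cannot go below. In a whole-brain sample, fewer cells of a type and less RNA per cell cannot be told apart.

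**Figure D2:**
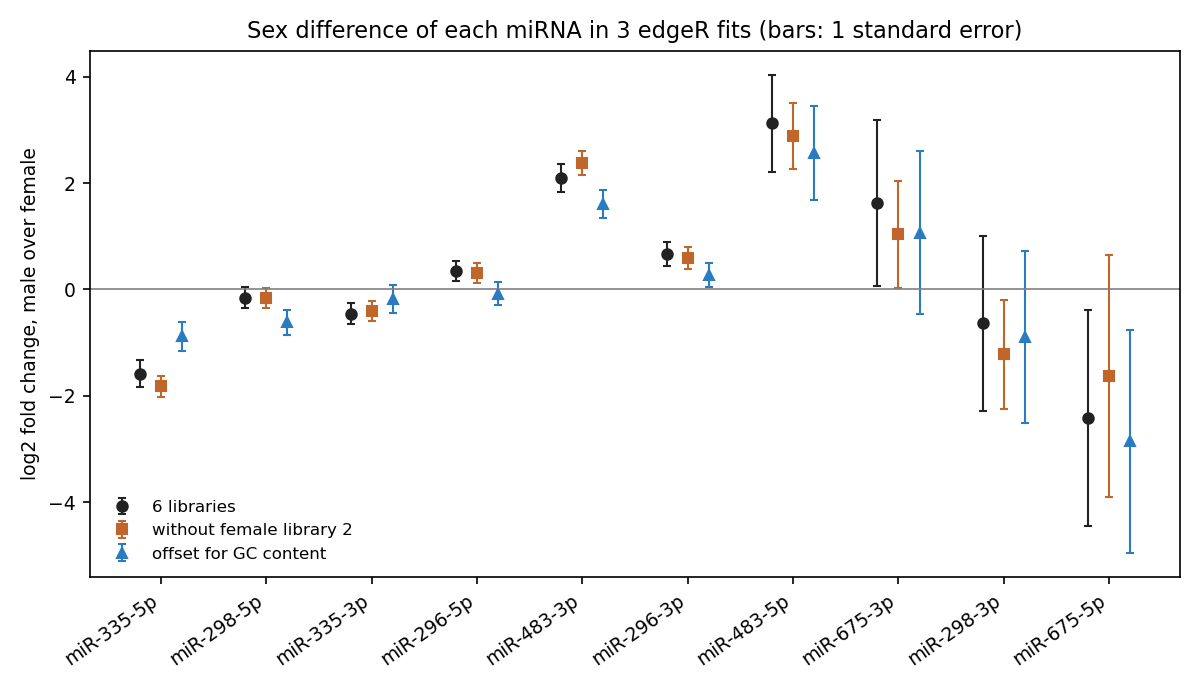
Log2 fold change of male over female for each miRNA, with bars of 1 standard error, from edgeR with all 6 libraries (black circles), without female library 2 (orange squares), and with an offset for the GC content of the mature strand (blue triangles). miR-335-5p stays below 0 and both arms of miR-483 stay above 0 in the 3 fits, with standard errors of 0.26 for miR-335-5p and 0.92 for miR-483-5p with all libraries, while the bars of the rare miR-675 and miR-298-3p arms are the widest.

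miR-483-3p, read from the intron of the growth factor gene Igf2, had the firmest difference of the set. It measured 69.4, 74.7 and 34.9 CPM in female libraries 1, 2 and 3, and 292, 292 and 263 CPM in male libraries 1, 2 and 3. The lowest male library was over 3 times the highest female one, and the male libraries lay closer together, with a coefficient of variation of 5.94% against 36.2% in females. The mean was 59.7 ± 21.6 CPM in females and 282 ± 16.8 CPM in males (SD, n = 3 pools per sex). On the log2 scale the difference was 2.10 with a standard error of 0.26 and a 95% interval of 1.56 to 2.65 (edgeR, adjusted p = 2.7e-06). It was 2.38 without female library 2, and it was past the threshold under all 18 alternatives tried, with the lowest value, 1.60, under the GC offset (adjusted p = 1.77e-05) and the highest adjusted p, 0.0074, without male library 1.

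miR-483-5p, the minor strand of the same hairpin, was also male-biased. It had 3, 54 and 114 reads in female libraries 1, 2 and 3, or 0.203, 0.910 and 3.18 CPM, and 171, 746 and 337 reads in the male libraries, or 9.15, 16.99 and 14.3 CPM. The lowest male library was above the highest female one, although the 3 reads of female library 1 allow a level anywhere from 0.0418 to 0.592 CPM by the exact Poisson interval at 95%. The fitted log2 fold change was 3.12 with a standard error of 0.92 and a 95% interval of 1.23 to 5.02 (edgeR, adjusted p = 0.0304). This call held when female library 2 was left out (log2 fold change 2.88, edgeR, adjusted p = 0.000146) or female library 3, which moved the value to 4.36 (edgeR, adjusted p = 0.019). It was lost without female library 1 (edgeR, adjusted p = 0.0606) and without male library 1, 2 or 3 (0.178, 0.199 and 0.0765), although the fold changes stayed near that of all libraries, at 2.63, 3.38, 2.86 and 3.09. It was also lost with the GC offset, at a log2 fold change of 2.57 (edgeR, adjusted p = 0.0822).

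The reads of miR-483 were nearly all on the 3p arm. The 5p arm held 0.291%, 1.202% and 8.36% of the hairpin's reads in female libraries 1, 2 and 3, and 3.04%, 5.49% and 5.15% in the male libraries, so the sexes overlapped in this share. The log2 ratio of 5p to 3p reads was 1.57 higher in males with a standard error of 1.27, which did not pass the threshold (limma over 254 precursors, adjusted p = 0.577).

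miR-335-5p, from the intron of Mest, was the most abundant of the 10 and was female-biased. It measured 4952.4, 3309.3 and 8773.9 CPM in female libraries 1, 2 and 3, against 2132.9, 1891.5 and 2118.0 CPM in male libraries 1, 2 and 3. Every female library was above every male library, but the female ones ranged widely, with a coefficient of variation of 49.4% against 6.61% in males. The counting interval of female library 1, 4916.6 to 4988.4 CPM, was far narrower than the gaps between the female libraries. The mean was 5678.5 ± 2803.7 CPM in females and 2047.5 ± 135 CPM in males. This gave a log2 fold change of -1.58 with a standard error of 0.26 and a 95% interval of -2.12 to -1.05 (edgeR, adjusted p = 0.000114). It was -1.82 without female library 2. Of the 18 alternatives, 17 kept the call, and it was lost by a small margin without male library 1 (edgeR, log2 fold change -1.55, adjusted p = 0.0504).

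miR-335-3p, the other strand of the hairpin, was also higher in every female library, but by a smaller amount. It measured 1322.7, 1336.4 and 1406.5 CPM in female libraries 1, 2 and 3, and 1107.8, 1092.7 and 1043.9 CPM in the male libraries. The spread within a sex was small here, at 1355.2 ± 45.0 CPM in females and 1081.5 ± 33.4 CPM in males. The log2 fold change was -0.45 with a standard error of 0.19 and a 95% interval of -0.84 to -0.06, which did not pass the threshold after adjustment (edgeR, adjusted p = 0.168), and it was -0.40 without female library 2. With 1 RUVr factor, the call was made both in edgeR (adjusted p = 0.0391) and in DESeq2 (adjusted p = 0.0131). With the GC offset the log2 fold change was -0.18 (edgeR, adjusted p = 0.792), and it turned to 0.34 when female library 2 was also left out.

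The measured sex differences of the miR-335 arms were thus of unequal size. The test of their ratio did not pass the adjusted threshold with all 6 libraries (limma, adjusted p = 0.126). The 5p arm held 78.9%, 71.2% and 86.2% of the hairpin's reads in female libraries 1, 2 and 3, and 65.8%, 63.4% and 67.0% in the male libraries. The sexes did not overlap, and the share was 78.8% ± 7.48 in females and 65.4% ± 1.84 in males (SD, n = 3 pools, two-sided exact permutation test, p = 0.1, the smallest possible). In reads of 5p per read of 3p, a ratio that no library scaling can move, the female libraries had 3.74, 2.48 and 6.24 and the male libraries 1.93, 1.73 and 2.03. The GC offset can move it, since the arms differ in GC content. With that offset the log2 fold changes of the 5p and 3p arms were -0.88 and -0.18, against -1.58 and -0.45 without it (edgeR).

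Across all 254 precursors with a mean of at least 10 reads on each arm, the log2 ratio of 5p to 3p was tested for sex with limma. The value for miR-335 was -1.03 (male minus female) with a standard error of 0.30, an unadjusted p of 0.00625 and an adjusted p of 0.126. It ranked 12 by p among the 254, where the median size of the difference was 0.84. None of the 254 passed the adjusted threshold in limma, where 38 had an unadjusted p below 0.05 (15.0%) and the smallest adjusted p was 0.0547. Without female library 2, the difference for miR-335 was -1.35 with a standard error of 0.22 (limma, adjusted p = 0.00188), and 10.2% of 255 precursors were called. Leaving out any other library did not bring it past the threshold (limma, adjusted p = 0.217 to 0.340).

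**Figure D3:**
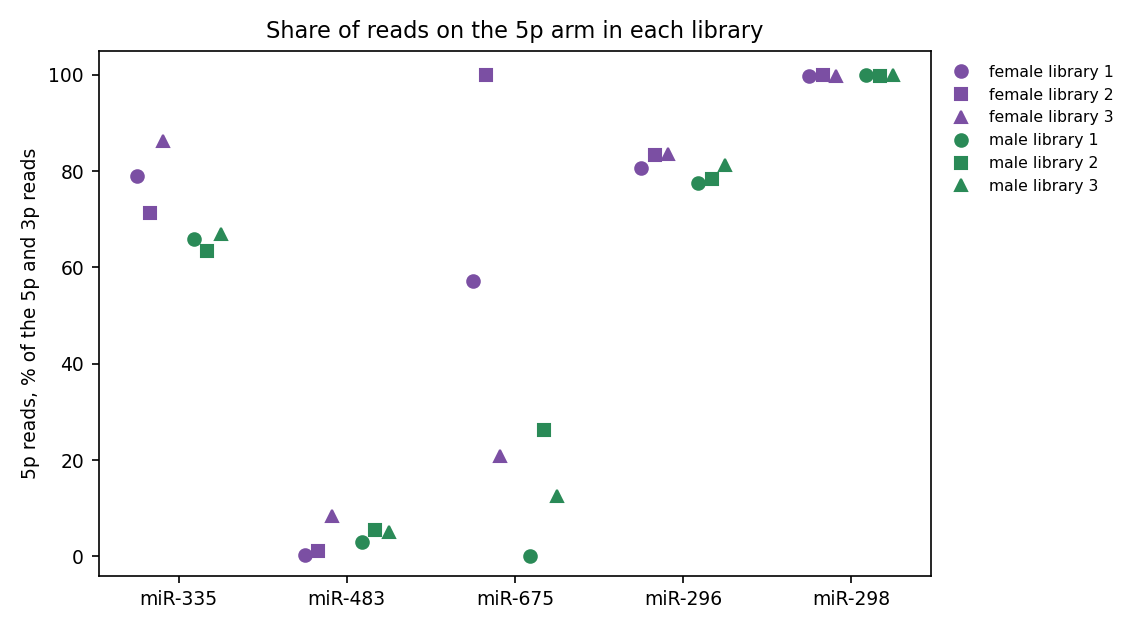
Share of each hairpin's reads that lay on the 5p arm, in percent, for the 3 female (violet) and 3 male (green) libraries. The female libraries lie above the male ones for miR-335, at 71.2% to 86.2% against 63.4% to 67.0%, miR-298 is near 100% in every library, and the few reads of miR-675 are spread from 0% to 100%.

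At the H19 locus, both arms of miR-675 were rare, and neither passed the threshold between the sexes. miR-675-5p had 36, 246 and 19 reads in female libraries 1, 2 and 3 and 0, 34 and 15 reads in the male libraries. This is 2.43, 4.14 and 0.531 CPM in females and 0, 0.774 and 0.635 CPM in males, where 0 reads in male library 1 allow a level of up to 0.161 CPM. The groups overlapped (two-sided exact permutation test, p = 0.3), and the log2 fold change of -2.42 had a 95% interval of -6.60 to 1.76 (edgeR, adjusted p = 0.507). Without female library 2 it was -1.63 (edgeR, adjusted p = 0.689). Of the 176 miRNAs within 2-fold of its level in the other libraries, 29.0% were also at 0 in male library 1, a share inside the range of the other libraries, 9.09% to 51.1%.

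miR-675-3p had 27, 0 and 72 reads in female libraries 1, 2 and 3, or 1.82, 0 and 2.01 CPM, and 115, 96 and 104 reads in the male libraries, or 6.16, 2.19 and 4.40 CPM. The sexes did not overlap, although the highest female and the lowest male library were within each other's counting intervals. The log2 fold change was 1.63 with a 95% interval of -1.61 to 4.86 (edgeR, adjusted p = 0.598). It was 1.04 without female library 2 (edgeR, adjusted p = 0.564), and 3.44 with 1 RUVr factor (edgeR, adjusted p = 0.0234). The 0 in female library 2 allows a level of up to 0.0505 CPM, and that library lists many rare miRNAs at 0. Of the 162 miRNAs within 2-fold of the level of miR-675-3p in the other libraries, 38.3% were at 0 there, against 1.85% to 4.94% in the other libraries. The summed arms were at 3.65 ± 0.959 CPM in females and 4.72 ± 1.62 CPM in males and overlapped (exact permutation p = 0.4).

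The major arm of miR-675 was the 3p arm in male libraries 1, 2 and 3 and in female library 3. It was the 5p arm in female libraries 1 and 2. The 5p arm held 57.1%, 100% and 20.9% of the reads in female libraries 1, 2 and 3 and 0%, 26.2% and 12.6% in the male libraries. Female library 2 had 246 reads of the 5p arm and 0 of the 3p arm, and male library 1 had 0 and 115. Female library 1 was near even, at 36 and 27 reads, and female library 2 is the one with many rare miRNAs at 0.

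The neighbouring imprinted miRNAs miR-483 and miR-675 were thus present at very different levels. Summed over the arms, miR-483 was at 61.1 ± 20.2 CPM in females and 295.7 ± 16.6 CPM in males, against 3.65 and 4.72 CPM for miR-675.

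At the Gnas locus, the arms of miR-296 were higher in every male library, and neither passed the threshold with all 6 libraries. miR-296-5p measured 591, 457 and 545 CPM in female libraries 1, 2 and 3 and 760, 761 and 682 CPM in the male libraries. The means were 531 ± 67.7 CPM in females and 734 ± 45.5 CPM in males, and the log2 fold change was 0.35 with a standard error of 0.19 and a 95% interval of -0.04 to 0.74 (edgeR, adjusted p = 0.346). It was 0.30 without female library 2. With the GC offset the value turned to -0.08 (edgeR, adjusted p = 0.912), so its direction is not settled by these data.

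miR-296-3p measured 141, 91.9 and 107 CPM in female libraries 1, 2 and 3 and 219, 210 and 156 CPM in the male libraries. The means were 113 ± 25.1 and 195 ± 34.0 CPM, and the log2 fold change was 0.66 with a standard error of 0.22 and a 95% interval of 0.21 to 1.12 (edgeR, adjusted p = 0.0693). This miRNA sat at the edge of the threshold and was called in 7 of 18 alternatives. Among them were edgeR without female library 1 (adjusted p = 0.0236) and edgeR without female library 2 (log2 fold change 0.58, adjusted p = 0.0343). Another was DESeq2 (adjusted p = 0.0259), which called 11.8% of all miRNAs. With the GC offset the log2 fold change was 0.27 (edgeR, adjusted p = 0.564). The 5p arm held 80.7% to 83.5% of miR-296 reads in females and 77.6% to 81.4% in males, which overlap.

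miR-298-5p, from the hairpin next to miR-296, was the second most abundant of the set and did not separate the sexes. It measured 1530.9, 1492.9 and 1929.8 CPM in female libraries 1, 2 and 3 and 1937.0, 1475.6 and 1484.4 CPM in the male libraries, so each sex had 1 high library and the ranges overlapped. The means were 1651.2 ± 242 CPM in females and 1632.3 ± 264 CPM in males (two-sided exact permutation test, p = 0.6). The log2 fold change was -0.15 with a standard error of 0.20 and a 95% interval of -0.55 to 0.25 (edgeR, adjusted p = 0.739), and it was -0.17 without female library 2. With the GC offset and without female library 2 together, it was -0.64 and past the threshold (edgeR, adjusted p = 0.0206, in a fit that called 14.1% of all miRNAs).

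miR-298-3p had 61, 0 and 167 reads in female libraries 1, 2 and 3, or 4.12, 0 and 4.66 CPM, and 36, 144 and 14 reads in the male libraries, or 1.93, 3.28 and 0.592 CPM. The sexes overlapped, and the log2 fold change of -0.64 had a 95% interval of -4.03 to 2.75 (edgeR, adjusted p = 0.878). Without female library 2 it was -1.22 (edgeR, adjusted p = 0.504). The 0 in female library 2 again came with 44.0% of 168 miRNAs of like level at 0 in that library, against 2.38% to 6.55% in the others. The 5p arm held at least 99.7% of miR-298 reads in every library, so the minor strand is a trace.

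Although miR-296 and miR-298 lie 378 bases apart on 1 strand, their levels did not keep a fixed ratio over the libraries. Per read of miR-296-5p there were 2.59, 3.26 and 3.54 reads of miR-298-5p in female libraries 1, 2 and 3, and 2.55, 1.94 and 2.18 in the male libraries. The ratio was higher in each female library, by a narrow margin between female library 1 and male library 1. Summed over the arms, miR-296 was at 644 ± 91.5 CPM in females and 929 ± 79.3 CPM in males without overlap (exact permutation p = 0.1), and miR-298 was at 1654.1 ± 244 and 1634.2 ± 264 CPM with overlap (exact permutation p = 0.6).

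Some ratios within a library set the loci against each other with no scaling involved. Per read of miR-483-3p there were 19.1, 17.9 and 40.3 reads of miR-335-3p in the female libraries and 3.80, 3.74 and 3.97 in the male libraries. The ratio was higher in every female library than in any male one. This had to follow, since miR-335-3p was higher and miR-483-3p lower in every female library. Library scaling cannot move this ratio, but the GC offset can, since miR-335-3p has 36.4% and miR-483-3p 61.9% GC. With that offset their log2 fold changes were -0.18 and 1.60, against -0.45 and 2.10 without it (edgeR). Relative to miR-296-5p, miR-483-3p was at 0.384, 0.384 and 0.386 reads per read in the 3 male libraries and at 0.117, 0.163 and 0.0641 in the females, so the male libraries were alike in this balance and the female ones were not.

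GC content moved with the sex comparison across the whole table. Over the 474 miRNAs that averaged 100 reads or more and had a known sequence, GC content and log2 fold change had a Pearson correlation of 0.32 and a Spearman correlation of 0.41, and of 0.39 and 0.47 without female library 2. This is a description across miRNAs measured in the same 6 libraries. Among the miRNAs within 5 percentage points of GC of miR-335-5p, the median log2 fold change was -0.83 (n = 34), and 80% of them lay between -1.67 and 0.32, so its own value of -1.58 was near the low end. For miR-335-3p, at -0.45, the corresponding median was -0.54 (n = 115). For miR-483-3p the median of its GC neighbours was 0.20 (n = 96) with a range of -0.86 to 0.75 for the middle 80%, and its own value of 2.10 lay outside.

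With the offset that removed this trend (Pearson correlation after the offset -0.03), miR-335-5p kept a log2 fold change of -0.88 with a standard error of 0.27 (edgeR, adjusted p = 0.0402) and miR-483-3p kept 1.60 with a standard error of 0.26. These were then the 2 of 10 called, against a background of 6.61%. That background is over all tested miRNAs, including those without a known sequence, which received no offset. The size of the miR-335-5p difference thus depended on how GC content was treated. What part GC content plays in the other differences was not tested beyond these fits.

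**Figure D4:**
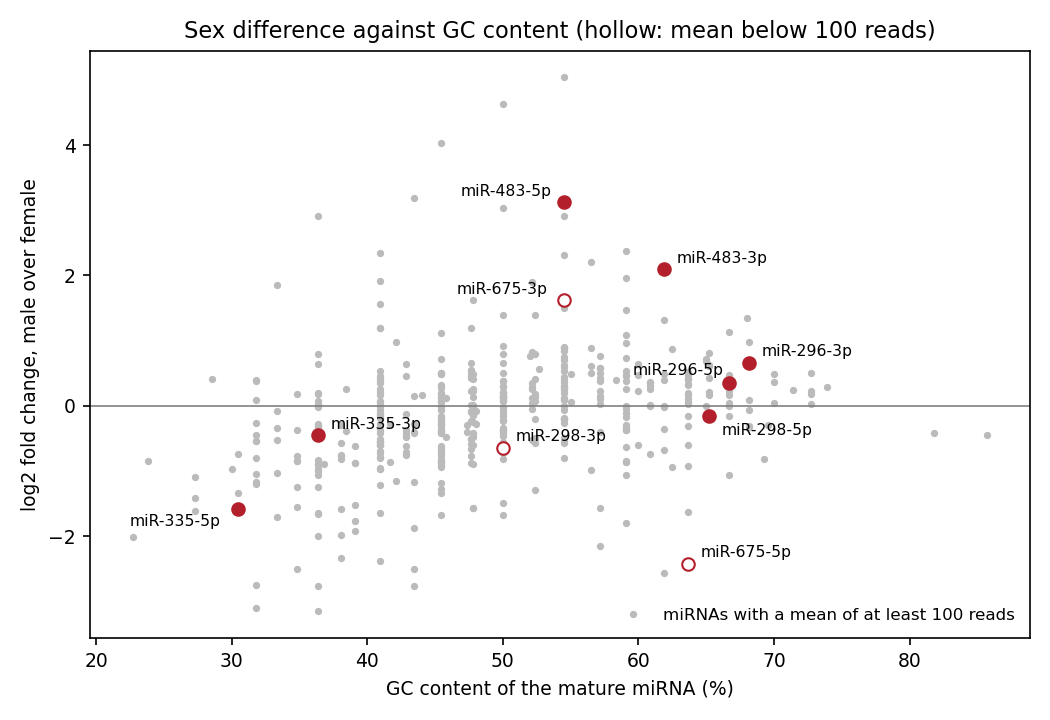
Log2 fold change of male over female against the GC content of the mature strand in percent. Grey points are miRNAs averaging 100 reads or more, and red points are the 10 miRNAs of the imprinted loci, hollow where the mean was below 100 reads. Over 474 miRNAs the Pearson correlation was 0.32, with the AU-rich miR-335 arms at the low left and miR-483-3p, at 2.10, above the other plotted miRNAs of the same GC content.

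Markers of other cell types also moved with sex. The marker lists, here and in the next paragraph, were chosen with earlier results of these data known. Their called counts stand beside 3.21% male-biased and 5.27% female-biased over all tested miRNAs in edgeR. The summed level of 8 mesenchymal and meningeal miRNAs (miR-199, miR-214 and miR-140 arms) was 6905.0 to 20493.5 CPM in females and 31649.9 to 37472.6 CPM in males, with 6 of 8 male-biased. This list names both miR-199a-3p and miR-199b-3p, which have the same GC content. Names that share a strand can be credited with the same reads, as the equal levels of let-7a-1-3p and let-7c-2-3p in every library show. The mesenchymal sum and counts, here and below, may therefore hold the same reads under both miR-199 names. All 4 skeletal muscle miRNAs were male-biased, with sums of 388 to 1180.1 CPM in females and 5497.5 to 6138.8 CPM in males, and so were 6 of 7 epithelial miRNAs, with sums of 730 to 1545.2 and 9181.4 to 9499.2 CPM. The miR-483 arms were male-biased and miR-335-5p was female-biased. Igf2, Mest and H19 are expressed in embryonic mesenchyme and muscle, and the part of these tissues in the miR-483 and miR-335 differences was not tested.

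The 9 markers of neurons and neural progenitors were higher in females in sum, at 230589 to 274353 CPM against 184594 to 213143 CPM in males, and 5 of 9 were female-biased. The 8 markers of the choroid plexus, a main site of Igf2 expression in the brain, had sums of 1522.7 to 1662.8 CPM in females and 1418.9 to 1459.6 CPM in males, and 0 of 8 passed edgeR's threshold. The 4 red blood cell markers had sums of 673 to 1367.3 CPM in females and 1605.3 to 1984.0 CPM in males, with 1 male-biased. The 4 liver markers had sums of 347 to 681 CPM in females and 290 to 320 CPM in males, with 1 of 3 tested female-biased. In each list but that of liver, where miR-122-3p was at 0 in every library, all markers were detected in at least 1 library. Without female library 2, 7 of 8 mesenchymal markers were male-biased and 1 female-biased. In that fit 1 of 8 choroid plexus markers and 2 of 3 liver markers were female-biased, and the counts of the other lists did not change. It called 18.3% of all tested miRNAs.

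The miRNAs whose levels over the 6 libraries were most like those of the leading arm of each hairpin were sought among those averaging 100 reads or more, by the Pearson correlation of log2 CPM. For miR-335-5p these were miR-21a-5p, miR-369-3p and miR-7a-5p, each at 0.988 (552 miRNAs compared), and all 3 were female-biased. For miR-483-3p they were miR-224-5p (0.995), miR-139-5p (0.989) and miR-1981-3p (0.985). Of these only miR-139-5p was called, as male-biased (edgeR, adjusted p = 0.0229). For miR-296-5p they were miR-877-5p (0.991), miR-431-5p (0.986) and its own partner miR-296-3p (0.979), the only case here in which both arms of a hairpin were this close. For miR-298-5p they were miR-361-5p (0.943), miR-467c-5p (0.940) and miR-345-3p (0.933), and for the rare miR-675-3p they were miR-500-3p (0.988), miR-1955-5p (0.983) and miR-667-5p (0.982). None of the miRNAs named for miR-296-5p, miR-298-5p and miR-675-3p passed edgeR's threshold. These correlations are descriptions over 6 libraries that fall into 2 sexes, so any miRNAs that separate the sexes in 1 direction correlate.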

How the data were processed

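Small RNA-seq counts of 6 whole-brain libraries were analysed, 3 female and 3 male, each a pool of embryos. For each mature miRNA, the authors deposited its raw count of reads, which was not normalized. Per the labels and the study's methods, adaptors were removed with cutadapt 1.15, reads were mapped with Bowtie 1.2.1 to miRBase and mm9, and known miRNAs were quantified with miRDeep2. Nothing in the labels ties a pool to a litter or a day. At most 0.21% of miRNAs had identical counts between any 2 libraries, so each was counted as a sample.

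Of the 1915 miRNAs listed, the 1120 with a sum of at least 10 reads were kept. R 4.3.3 was used with edgeR 4.0.16 (TMM scaling, quasi-likelihood test for sex, Benjamini-Hochberg adjustment, threshold 0.05), limma 3.58.1 for the log2 ratio of the arms and DESeq2 1.42.0 as an alternative. The study used DESeq2 with RUVr factors. A standard error is the size of the log2 fold change over the square root of its F statistic. Single values were compared with two-sided exact permutation tests.

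The miRNAs described and the marker lists were chosen with earlier results of these data known. Besides the 10 miRNAs, the named ones are, by rule, the 3 most correlated with the leading arm of each hairpin and the 2 largest changes in each direction of the Dlk1-Dio3 list. Sequences came from the RefSeq table of GRCm38.p6 and matched 10 of 10 miRNAs and 951 of the 1120 tested (84.9%). The GC offset is a loess curve of log2 CPM on GC content in each library. Tested miRNAs without a sequence received no offset. Positions came from mm9 with GENCODE vM1. The alternatives were other scalings, tests and filters, 1 RUVr factor, the GC offset, a replicate block and each library left out. The procedures were tested on simulated data.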

Additional observations from a re-analysis of the deposited data

How the results depend on the processing

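Among the 1120 miRNAs tested, 95 were called, 36 male-biased and 59 female-biased. Scaling by library total called 89, 50 male-biased and 39 female-biased. With 1 RUVr factor the counts were 227 in edgeR and 260 in DESeq2, and 156 with the GC offset and without female library 2 (a setting added once the data had been seen). Leaving out each library gave 30 (without male library 1) to 203 (without female library 2), with 60 without female library 3. Of the 10 miRNAs, 3 were called, 6 and 7 with RUVr in edgeR and DESeq2, and 1 to 4 with a library left out. Of the arm ratios, 0 of 254 were called in limma, where 38 had an unadjusted p below 0.05. At a mean of 100 reads 3 of 160 were called, with a pseudocount of 5 reads 5 of 254, and with a library left out 0 to 26. The cause of these shifts was not tested.

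The log2 fold change of miR-335-3p turned to 0.34 with the GC offset and without female library 2. That of miR-296-5p turned to -0.077 with the GC offset, to -0.088 with the replicate block added and to -0.10 without female library 2. That of miR-298-3p turned to 1.64 and 1.75 with RUVr. With a library left out, the log2 ratio of mean CPM of miR-298-5p ran from -0.16 to 0.11, as did that of summed miR-298, and both turned positive without female library 3, male library 2 or male library 3. The arm ratio of miR-298 ran from -3.06 to 1.39, the latter without female library 2.

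The labels do not say whether replicate numbers pair the sexes. Over all tested miRNAs, deviations from the sex mean in same-numbered libraries correlated at -0.05, -0.01 and 0.05. With 3 libraries per sex, these values cannot settle it. With the number as a replicate block, 92 miRNAs and 3 of the 10 were called, and 13 of 254 arm ratios, among them miR-335 (limma, adjusted p = 0.0149). At these depths, the 0 reads of miR-675-5p, miR-675-3p and miR-298-3p in 1 library each allow up to 0.0505 to 0.161 CPM.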

Other observations

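The miRNAs of the imprinted Dlk1-Dio3 cluster, which are read from the maternal copy and are numerous in the embryonic brain, took a much larger share of the reads than the 10 miRNAs of the other imprinted loci. Of 98 listed, 96 were found and 91 were tested, and their summed level was 55229.5 to 59701.5 CPM in females and 64284.6 to 69640.1 CPM in males, without overlap. In edgeR's quasi-likelihood test 4 were male-biased and 9 female-biased, and the median log2 fold change of the 91 was 0.12, against -0.02 over all tested miRNAs. These 13 of 91 stand beside 8.48% called over all tested miRNAs. Without female library 2 the counts were 14 and 20, beside 18.3%, and with the GC offset 2 and 5, beside 6.61%. The larger male-biased changes were those of miR-673-5p (edgeR, log2 fold change 1.09, adjusted p = 0.000687, mean 185 CPM in females and 428 CPM in males) and miR-493-5p (0.98, adjusted p = 0.00262, 146 and 313 CPM). On the female side they were those of miR-136-5p (edgeR, -1.996, adjusted p = 0.00126, 66.6 and 18.4 CPM) and miR-369-5p (-1.67, adjusted p = 9.56e-05, 356 and 123 CPM).

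The miRNAs in an intron of Calcr, a gene imprinted in brain, were nearly absent. miR-489-5p, miR-489-3p and miR-653-3p were at 0 in every library, and miR-653-5p was at 5.54 to 12.8 CPM in females and 4.74 to 7.07 CPM in males. Its log2 fold change, -0.56, was not past the threshold.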
